A study of Mus musculus with 14 samples.

Results

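The 10 genes Ccnd1, Ccnd2, Ccnd3, Ccne1, Ccne2, Cdk4, Cdk6, Cdk2, Cdkn1a and Cdkn1b encode the cyclins, kinases and inhibitors of the G1 phase of the cell cycle, and their mRNA levels were followed in mouse lung from E12 to the adult. They were taken by gene symbol from the annotation of the array and are 10 of 18193 named genes, or 28 of 45037 probe sets. A probe set is the group of short probes on the array that reads a transcript. A gene with several probe sets was read from the brightest of them, by its mean over all arrays, and the other 18 probe sets were used as a check.

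A cell leaves G1 when D-type cyclins, which respond to growth factors, bind CDK4 or CDK6 and start the phosphorylation of the retinoblastoma protein. E-type cyclins with CDK2 complete it, E2F factors are released and the genes of DNA replication are switched on. p21, encoded by Cdkn1a, and p27, encoded by Cdkn1b, bind cyclin-CDK complexes and hold CDK2 inactive. In the lung, epithelium and mesenchyme divide rapidly while the airways branch, and division slows as the saccules mature before birth.

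The study profiled RNA of pooled whole lungs from ICR mice, an outbred strain, with no mutation or treatment in any group, at 7 time points with 2 Affymetrix arrays each (14 arrays). The time points were embryonic days E12, E14, E16 and E18, counted from the day of the vaginal plug as day 0, postnatal days P2 and P10, and Adult, which was postnatal day 30. The number of animals in a pool is not given in the sources used here, nor whether the 2 arrays of a time point came from separate pools, so the p-values measure the spread between these arrays, which may be technical. The values are deposited log2 signals. A difference of 1 is a 2-fold change, and levels were compared within a probe set but never between probe sets. In whole lung, fewer cells of a type and less RNA per cell cannot be told apart.

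The replicates of a time point correlated at r = 0.9953 to 0.9977 over all probe sets, and 14 of 14 arrays had their own replicate as the nearest array. The surfactant gene Sftpc was at a log2 value of 10.78 or more on every array, and 5 liver marker genes had summed linear signals of 289 to 378 at every time point. Replicate 1 of E16 stood apart in tissue markers. The ventricular myosin gene Myl2 was at 12.63 there against 8.84 in replicate 2 of E16, and the atrial peptide gene Nppa was at 10.46 against 5.55. The lymphocyte recombinase gene Rag1 was at 5.80 against 3.23. Of the other lymphocyte markers, Cd3g was at 6.23 against 4.04, Cd79b at 6.79 against 6.53 and Cd3e at 7.18 against 7.13. Cd79a (5.33 against 5.67) and Ms4a1 (4.03 against 4.82) were lower in replicate 1. Replicate 2 of E16 was itself above the E12, E14 and E18 arrays in Myl2 (4.65 to 4.92 there) and Nppa (4.40 to 4.92 there). The label gives all samples as female, but both arrays of P2 and both of P10 had the Y-linked gene Eif2s3y at 8.35 to 8.62 with Xist at 6.88 to 7.41. E16 replicate 2 and the Adult arrays had Eif2s3y at 2.86 to 3.60 and Xist at 12.65 to 13.32, and the arrays of E12, E14, E18 and E16 replicate 1 had both genes (Eif2s3y 6.95 to 8.10, Xist 11.97 to 12.84). Age and this difference in sex-linked transcripts cannot be told apart in comparisons of P2 or P10 with E18 or Adult. The same holds for Adult against E12 or E18, where 3 of 4 sex-linked genes were lower in Adult. From E16 to E18, 3 of these 4 genes were higher and 1 lower, and the 2 E16 arrays were unlike each other (Eif2s3y 7.14 and 3.13).

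Across the 7 time points the cyclins and kinases had their highest means at E12, or at E16 for Ccne2, and the inhibitors at E18. For Cdk6 the arrays of E12, E14 and P10 overlapped at the top. A gene was called dynamic when the moderated F test of limma gave a Benjamini-Hochberg adjusted p under 0.05, its highest time-point mean was above 7 and its highest and lowest means differed by more than 1.2 on the log2 scale. Of the 10 genes, 7 were dynamic, where 26.7% of all 18193 genes and 41.7% of the 11663 genes with a mean above 7 were. Ccnd1, Ccnd3 and Cdk6 were not, because their means spanned 0.96, 0.45 and 0.77 on their main probe sets. The dimmest probe sets of Ccnd1 (span 1.38) and of Ccnd3 (span 2.20) passed the same thresholds. The widest span was that of Ccne2 (4.73, 26.6-fold) and the next that of Cdk4 (2.84, 7.17-fold). The count of dynamic genes stayed at 7 without any 1 array and without the P2 and P10 arrays. It was 5 when all probe sets of a gene were averaged, and Cdk2 and Cdkn1b, each with a dim second probe set, were the genes lost.

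**Figure D1:**
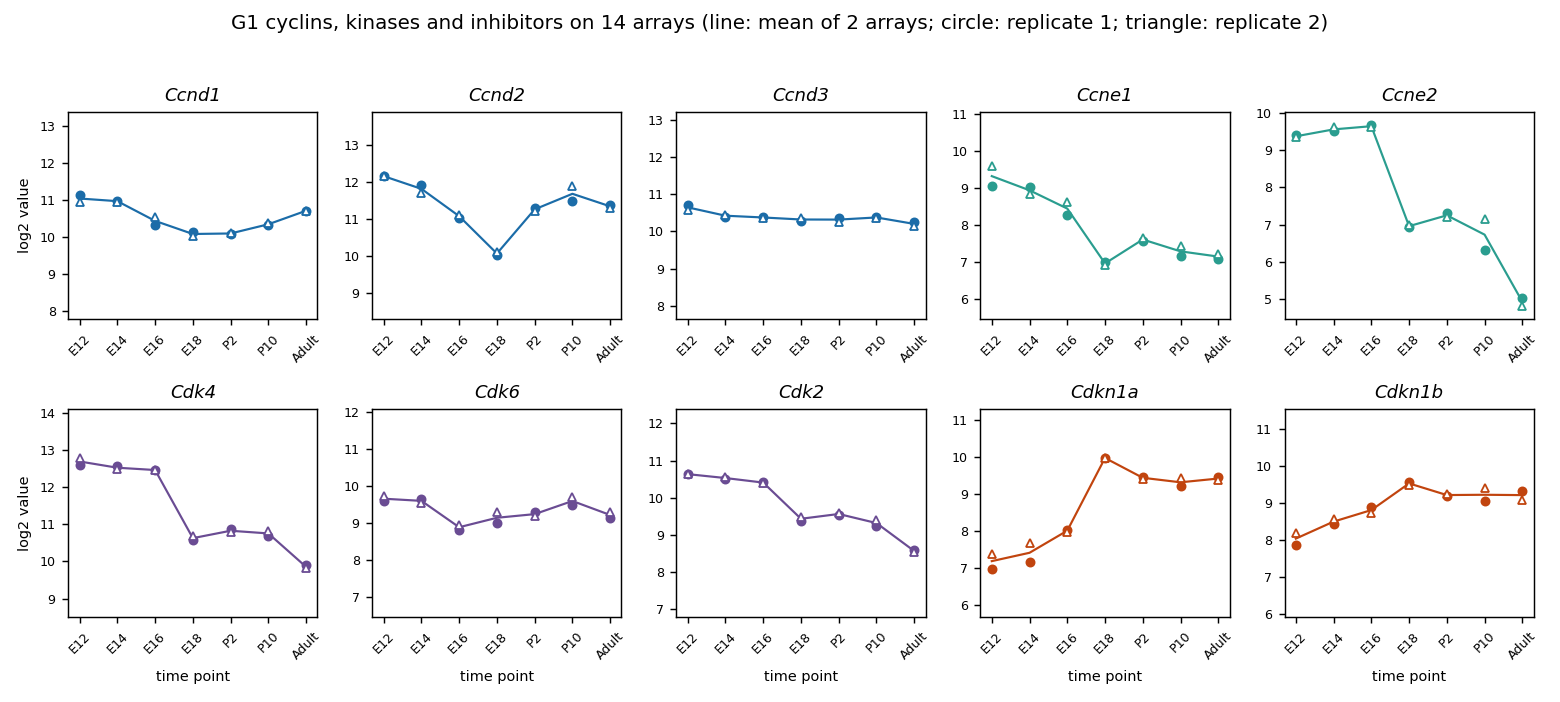
Log2 value (y axis, each panel spanning the same number of log2 units) of the 10 genes at the 7 time points (x axis), with replicate 1 as circles, replicate 2 as triangles and a line through the mean of the 2 arrays. Ccne1, Ccne2, Cdk4 and Cdk2 drop between E16 and E18, Ccnd2 dips at E18 and returns, and Cdkn1a and Cdkn1b peak at E18.

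Ccnd2, a D-type cyclin, had the largest change among the D cyclins on the main probe sets and was lowest at E18. The dimmest Ccnd3 probe set spanned 2.20, against 2.09 for the main one of Ccnd2. Its log2 values on the 2 arrays of each time point were 12.15 and 12.15 at E12, 11.91 and 11.70 at E14, 11.02 and 11.11 at E16, 10.02 and 10.10 at E18, 11.28 and 11.22 at P2, 11.47 and 11.87 at P10, and 11.37 and 11.30 in Adult. Both E18 arrays lay below all others, and both E12 arrays lay above all others. Ccnd2 fell by 1.01 ± 0.121 (standard error, 2.01-fold, adjusted p = 1.57e-05) from E16 to E18, with n = 2 arrays at each time point. Here and below, the standard error is the moderated one of limma. It pools the spread over all 14 arrays and is not that of the 4 arrays compared. It rose by 1.19 ± 0.121 (2.28-fold, adjusted p = 2.48e-05) from E18 to P2. In the same step the summed linear signal of 6 lymphocyte markers went from 364 to 405 at E18 to 742 to 829 at P2, with 3 of 6 higher and Rag1 still at 3.54 and 3.67. The summed signal of 6 macrophage markers went from 15500 to 15700 to 19100 to 20600, with 5 of 6 higher. In this step 8.58% of all genes were higher. The part of these cells in the Ccnd2 values was not tested. All 6 other Ccnd2 probe sets followed the main one over the 14 arrays (r from 0.823 to 0.984), a description of values that share the same RNA.

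Ccnd1, the D-type cyclin most closely tied to growth factor signals, changed less. Its values were 11.12 and 10.94 at E12, 10.98 and 10.94 at E14, 10.33 and 10.53 at E16, 10.12 and 10.03 at E18, 10.07 and 10.10 at P2, 10.31 and 10.36 at P10, and 10.71 and 10.70 in Adult. The E12 and E14 arrays were the 4 highest, and E18 and P2 overlapped at the bottom. The dimmest Ccnd1 probe set (r = 0.959 with the main one) spanned 1.38 and passed as dynamic. It gave -0.66 from E14 to E16 (adjusted p = 0.000898) and -0.66 from E16 to E18 (adjusted p = 0.000195). It also gave 0.39 from P10 to Adult (adjusted p = 0.0144) and -0.66 from E12 to Adult (adjusted p = 8.88e-05). On the main probe set Ccnd1 fell by 0.53 ± 0.0959 (adjusted p = 0.00198) from E14 to E16 and fell by 0.35 ± 0.0959 (adjusted p = 0.00929) from E16 to E18. The later of these calls was lost without E16 replicate 2 (0.106) or E18 replicate 2 (0.0682). Adult exceeded P10 by 0.36 ± 0.0959 (adjusted p = 0.0118), a call lost when P10 replicate 1 or either Adult array was left out (adjusted p 0.0529 to 0.0576), and another probe set of the same gene gave a difference of -0.01 (adjusted p = 0.959). Adult minus E12 was -0.33 ± 0.0959 (adjusted p = 0.00879), which was lost under quantile normalization (-0.20, adjusted p = 0.0714) and without E12 replicate 1 (-0.24, adjusted p = 0.0892).

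Ccnd3, the third D cyclin, was nearly level on its main probe set, with values from 10.59 and 10.71 at E12 to 10.15 and 10.26 in Adult and from 10.27 to 10.45 on the other 10 arrays. Adult minus E12 was -0.45 ± 0.0881 (adjusted p = 0.000546), and no step between neighbouring time points was called. Its other probe sets did not follow this course. The brighter of them differed by 0.05 between E12 and Adult (adjusted p = 0.69) and was 0.32 higher at E18 than at E16 (adjusted p = 0.0224). The dimmest of them (highest mean 7.73) was 1.56 higher in Adult than at E12 (adjusted p = 2.19e-06) and 1.44 higher at E18 than at E16 (adjusted p = 1.44e-05), and its correlation with the main probe set was -0.622 over 14 arrays. The direction of Ccnd3 therefore depends on which probe set is read.

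Ccne1, an E-type cyclin that activates CDK2, was highest at E12 and fell between E16 and E18. Its values were 9.04 and 9.58 at E12, 9.03 and 8.83 at E14, 8.26 and 8.62 at E16, 7.00 and 6.92 at E18, 7.55 and 7.65 at P2, 7.15 and 7.42 at P10, and 7.07 and 7.21 in Adult. The 6 arrays from E12 to E16 lay above the 8 later ones with no overlap. Ccne1 fell by 1.48 ± 0.166 (2.79-fold, adjusted p = 8.49e-06) from E16 to E18. It was 0.64 ± 0.166 higher at P2 than at E18 (adjusted p = 0.0185), which was lost when any 1 of those 4 arrays was left out (adjusted p 0.0682 to 0.118), and its other probe set gave 0.31 (adjusted p = 0.055). The main probe set carries the suffix that the array uses for probes shared with other transcripts, and the other probe set followed it at r = 0.975.

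Ccne2, the second E-type cyclin, kept its level to E16 and fell in separate steps before birth and after P10. It was at 9.41 and 9.35 at E12, 9.51 and 9.62 at E14, 9.67 and 9.63 at E16, 6.93 and 6.99 at E18, 7.30 and 7.20 at P2, 6.31 and 7.14 at P10, and 5.02 and 4.81 in Adult. The arrays to E16 were all above 9.3, and the Adult arrays lay below every other array. The Adult values were below the array medians of 6.55 to 6.62, so the size of the last fall is less certain than its direction. From E16 to E18 Ccne2 fell by 2.70 ± 0.188 (6.48-fold, adjusted p = 1.03e-07), and it fell by 1.81 ± 0.188 (3.50-fold, adjusted p = 9.32e-06) from P10 to Adult. Only 1 probe set reads this gene.

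Cdk4, the kinase partner of the D cyclins, fell by most among the kinases. Its promoter is shown because the E-box, the letters CACGTG that MYC family factors bind, occurs in it 4 times in the 250 bases before the transcription start. The sequence is from RefSeq, assembly GRCm38.p6, chr10:127063285-127063534, plus strand, 5′ to 3′, with the matches in capitals.
Cdk4: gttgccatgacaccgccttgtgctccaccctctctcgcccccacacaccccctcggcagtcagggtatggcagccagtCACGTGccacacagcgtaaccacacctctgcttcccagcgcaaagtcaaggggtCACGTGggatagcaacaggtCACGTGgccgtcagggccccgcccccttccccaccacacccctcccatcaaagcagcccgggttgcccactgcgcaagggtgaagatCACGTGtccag
The matches begin 172, 118, 98 and 11 bases before the start, and the motif reads the same on both strands. Of 32851 promoter windows of this length, 6.02% held at least 1 match and 7 held 4 or more. The window of Cdk6, a gene not called between E16 and E18, also held 1 match. A match describes letters and not a bound site. From E12 to Adult Myc fell by 2.18 ± 0.14 (adjusted p = 1.29e-08), and Mycn fell by 3.03 ± 0.18 (adjusted p = 3.87e-09). From E14 to E16 Myc fell by 0.69 ± 0.14 (adjusted p = 0.0052) and Mycn fell by 0.97 ± 0.18 (adjusted p = 0.00234). Cdk4 differed by -0.06 ± 0.0946 in that step (adjusted p = 0.731). From E16 to E18, when Cdk4 fell by 1.84, the Myc mean went from 7.74 to 6.931 and the Mycn mean from 8.3 to 7.125. The part of MYC family factors in the Cdk4 values was not tested.

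The Cdk4 values were 12.60 and 12.79 at E12, 12.56 and 12.49 at E14, 12.47 and 12.46 at E16, 10.58 and 10.67 at E18, 10.86 and 10.79 at P2, 10.69 and 10.82 at P10, and 9.89 and 9.81 in Adult. They formed 3 separate levels, E12 to E16, E18 to P10 and Adult, with no overlap between them. From E16 to E18 Cdk4 fell by 1.84 ± 0.0946 (3.57-fold, adjusted p = 6.52e-09), and it fell by 0.90 ± 0.0946 (1.87-fold, adjusted p = 1.02e-05) from P10 to Adult. Within the level from E18 to P10, neighbours in the order of means were within 2 standard errors of each other, as were E12 and E14, and E14 and E16. The main Cdk4 probe set carries the same suffix for shared probes as that of Ccne1. Both other Cdk4 probe sets followed it at r = 0.999.

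Cdk2, the partner of the E cyclins, had a course of the same form and smaller size. Its values were 10.63 and 10.64 at E12, 10.49 and 10.56 at E14, 10.41 and 10.40 at E16, 9.37 and 9.49 at E18, 9.53 and 9.59 at P2, 9.23 and 9.40 at P10, and 8.60 and 8.52 in Adult. The 6 arrays to E16 lay above all later ones and the Adult arrays below all others. From E16 to E18 Cdk2 fell by 0.98 ± 0.0902 (1.97-fold, adjusted p = 1.43e-06), and it fell by 0.75 ± 0.0902 (1.69-fold, adjusted p = 3.25e-05) from P10 to Adult. The other probe set of Cdk2 never exceeded a mean of 3.27 and showed no change.

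The Cdk2 promoter is shown for comparison with that of Cdk4, since both genes fell in the same 2 steps. It lies at chr10:128705052-128705301, minus strand, in GRCm38.p6 (RefSeq), and the capitals mark its only match to the E2F letters TTTCCCGC, TTTCGCGC, TTTGCCGC or TTTGGCGC, read on the opposite strand, 140 bases before the start.
Cdk2: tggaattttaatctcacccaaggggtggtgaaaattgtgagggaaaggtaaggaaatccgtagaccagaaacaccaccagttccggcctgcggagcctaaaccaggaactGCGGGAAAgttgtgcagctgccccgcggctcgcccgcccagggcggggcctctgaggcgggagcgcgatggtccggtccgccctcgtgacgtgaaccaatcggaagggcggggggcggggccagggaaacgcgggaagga
These E2F letters occurred on either strand in 1.86% of the 32851 windows. The Cdk2 window held no E-box, the Cdk4 window held none of the E2F letters, and the Ccne1 window held neither. The GC box GGGCGG, which occurred in 32.7% of windows, was found 5 times in the Cdk2 window, 4 times in that of Ccne1 and once in that of Cdk4. Of the 10 genes, 7 had an entry among these windows.

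Cdk6, the other partner of the D cyclins, was lowest at E16. It was at 9.60 and 9.72 at E12, 9.65 and 9.55 at E14, 8.82 and 8.96 at E16, 9.0 and 9.29 at E18, 9.29 and 9.19 at P2, 9.48 and 9.71 at P10, and 9.13 and 9.31 in Adult. The E16 arrays were the lowest, and the E12, E14 and P10 arrays overlapped at the top. Cdk6 fell by 0.71 ± 0.121 (1.64-fold, adjusted p = 0.0014) from E14 to E16. The difference of E18 from E16 was 0.25 ± 0.121 (adjusted p = 0.118), and the next brightest probe set gave 0.28 (adjusted p = 0.0302). The third and dimmest probe set of Cdk6 (highest mean 5.78, below the array medians) differed by -0.35 in this step (adjusted p = 0.077) and by 0.04 from E14 to E16 (adjusted p = 0.886). Adult minus E12 was -0.44 ± 0.121 (adjusted p = 0.00639), a call lost without E12 replicate 2 (0.0506) or Adult replicate 1 (0.064). Adult minus P10 was -0.38 ± 0.121 (adjusted p = 0.0346), which was lost without P10 replicate 2 (0.242) or Adult replicate 1 (0.219).

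Cdkn1a, which encodes the inhibitor p21, rose toward birth and was highest at E18. Its values were 6.99 and 7.40 at E12, 7.16 and 7.68 at E14, 8.05 and 7.98 at E16, 9.97 and 9.98 at E18, 9.47 and 9.42 at P2, 9.22 and 9.42 at P10, and 9.47 and 9.37 in Adult. The 8 arrays from E18 on lay above the 6 earlier ones, and both E18 arrays above all others. Cdkn1a rose by 1.96 ± 0.158 (3.89-fold, adjusted p = 3.89e-07) from E16 to E18. In that step 8 of 10 immediate early and stress genes were also higher (summed linear signal 2510 to 2680 at E16 and 4950 to 5180 at E18), as were 8 of 10 clock output genes (2260 to 2430 and 4950 to 5290). Of 6 macrophage markers 5 were higher, and their summed signal went from 2190 to 3040 at E16 to 15500 to 15700 at E18. In this step 24.8% of all genes were higher. The part of these responses and cells in the Cdkn1a values, and in those of the other members in this step, was not tested.

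The smaller changes of Cdkn1a were called over all 14 arrays and lost the call without some single arrays. The rise of 0.60 ± 0.158 from E14 to E16 (adjusted p = 0.0197) was lost without E16 replicate 1 (0.56, adjusted p = 0.113), E16 replicate 2 (0.63, adjusted p = 0.0563) or E14 replicate 1 (0.34, adjusted p = 0.232), and the other probe set gave 0.61 (adjusted p = 0.03). The difference of -0.53 ± 0.158 from E18 to P2 (adjusted p = 0.0369) was lost without any 1 of the 4 arrays (adjusted p 0.12 to 0.165), though its size stayed between -0.51 and -0.56, and the other probe set gave -0.47 (adjusted p = 0.0938). That probe set followed the main one at r = 0.977.

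Cdkn1b, which encodes the inhibitor p27, rose over the embryonic time points and was also highest at E18. It was at 7.88 and 8.21 at E12, 8.44 and 8.56 at E14, 8.90 and 8.73 at E16, 9.58 and 9.48 at E18, 9.18 and 9.25 at P2, 9.05 and 9.40 at P10, and 9.34 and 9.10 in Adult. Each embryonic time point lay above the one before without overlap, and P2, P10 and Adult overlapped. Cdkn1b rose by 0.72 ± 0.139 (1.65-fold, adjusted p = 0.000914) from E16 to E18, and Adult was 1.17 ± 0.139 above E12 (2.25-fold, adjusted p = 5.25e-06). The other probe set of Cdkn1b stayed at or below a mean of 5.84, below the array medians, and its F test was not passed (adjusted p = 0.228). Cdkn1a and Cdkn1b correlated at r = 0.954 over the 14 arrays, which share time points and libraries.

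Between E12 and Adult, all 10 genes passed the test. Cdkn1a and Cdkn1b were higher, in a comparison where 35% of all genes were called higher, and the 8 cyclins and kinases were lower, where 30.2% were. The median difference of the 10 genes was -0.631 and that of all genes 0.079. The largest falls were those of Ccne2 (-4.46 ± 0.188, 22.0-fold, adjusted p = 1.39e-10), Cdk4 (-2.84 ± 0.0946, adjusted p = 1.6e-11), Ccne1 (-2.17 ± 0.166, adjusted p = 5.7e-08) and Cdk2 (-2.07 ± 0.0902, adjusted p = 1.91e-10). The count was also 10 without the P2 and P10 arrays, but that fit leaves the E12 and Adult means unchanged and alters only the estimate of the spread.

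More members were called from E16 to E18 than in any other step between neighbouring time points. There 6 of the 10 genes were lower and 2 higher, where 21.6% and 24.8% of all genes were, and the median of the 10 genes was -0.664 against 0.0297 for all genes. Ccnd3 (-0.05) and Cdk6 were the members not called. This step was the largest of the course for Ccne1, Ccne2, Cdk4, Cdk2, Cdkn1a and Cdkn1b. Ccnd1 and Cdk6 changed by more from E14 to E16, and Ccnd2 by more from E18 to P2. Without E16 replicate 1, the array with the higher heart markers, Rag1 and Cd3g, none of these calls changed. Replicate 2 of E16 also had Myl2 at 8.84, so leaving out replicate 1 does not remove the heart signal from E16. The neighbouring steps share the arrays of E16 or E18 and are given side by side only.

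The earlier steps moved fewer members. From E12 to E14 no gene was called by limma, where 3.41% of all genes were higher and 0.918% lower. Ccnd2, Ccnd3, Ccne1 and Cdkn1b were at an unadjusted p under 0.05 in that step (4 genes), and 1 gene was called when the probe sets of a gene were averaged. From E14 to E16, Cdkn1a was higher and Ccnd1, Ccnd2 and Cdk6 lower, where 9.95% and 10.6% of all genes were. Ccnd2 fell by 0.74 ± 0.121 (adjusted p = 0.00106) in this step, and Ccne1 differed by -0.49 ± 0.166 (adjusted p = 0.0591). Ccne1 was called under 7 of 23 alternatives, and its other probe set was lower in this step (-0.62, adjusted p = 0.000888) and in the one from E12 to E14 (-0.45, adjusted p = 0.0255).

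After E18 the members went different ways. From E18 to P2, Ccnd2 and Ccne1 were higher and Cdkn1a lower, where 8.58% of genes were higher and 10% lower. From P2 to P10 no gene was called, where 4.82% and 4.37% were. Ccnd1, Ccnd2, Ccne2, Cdk6 and Cdk2 were at an unadjusted p under 0.05 there (5 genes), and Ccnd2 (0.42 ± 0.121, adjusted p = 0.0565) was called under 5 of 22 alternatives. From P10 to Adult, Ccnd1 was higher and Ccne2, Cdk4, Cdk6 and Cdk2 lower, where 16.8% and 14.9% of genes were, and 3 of these falls (Ccne2, Cdk4 and Cdk2) kept their call when any 1 array was left out.

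**Figure D2:**
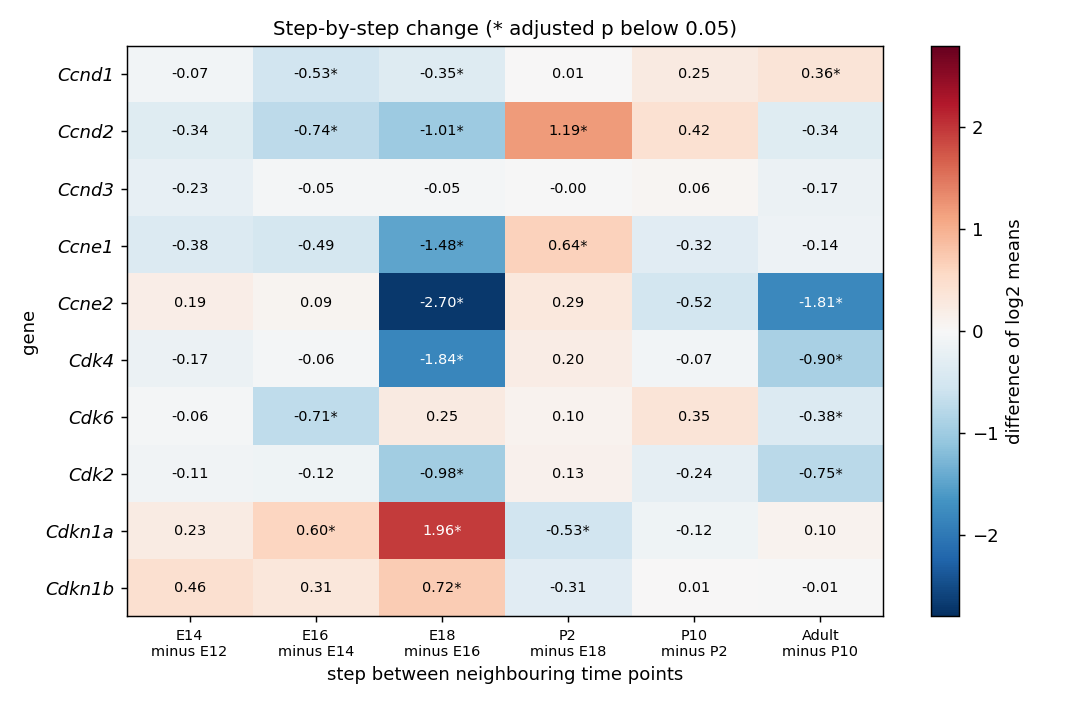
Difference of the log2 means (number and colour, red for higher and blue for lower) for the 10 genes (y axis) in the 6 steps between neighbouring time points (x axis), with a star where the adjusted p was below 0.05. The column of E18 minus E16 holds 8 stars, and those of E14 minus E12 and P10 minus P2 hold 0.

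Adult was also set against E18, a comparison added after the values were seen. Ccnd1 (0.63 ± 0.0959, adjusted p = 0.000189) and Ccnd2 (1.27 ± 0.121, adjusted p = 2.76e-06) were higher in Adult, where 19.2% of all genes were. Ccne2, Cdk4, Cdk2 and Cdkn1a were lower, where 20% were. The Cdkn1a call (-0.55 ± 0.158, adjusted p = 0.0145) was lost without either E18 array or Adult replicate 2 (adjusted p 0.0579 to 0.0812). The differences were -0.78 ± 0.0946 for Cdk4 (adjusted p = 2.73e-05), -0.87 ± 0.0902 for Cdk2 (adjusted p = 6.24e-06) and -2.04 ± 0.188 for Ccne2 (adjusted p = 2.11e-06). Ccne1 differed by 0.18 ± 0.166 (adjusted p = 0.436) and Cdk6 by 0.08 ± 0.121 (adjusted p = 0.682). The arrays of both time points were free of the P2 and P10 pattern of sex-linked transcripts, though Adult had the Y-linked genes low and E18 did not.

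Members with like roles were compared by the difference of their log2 changes on the same arrays, for 7 pairs in 8 comparisons (56 tests in all, adjusted over all probe sets). In the step from E16 to E18 all 7 pairs differed. Cdk4 fell by more than Cdk6 (Cdk4 minus Cdk6 -2.09 ± 0.11, adjusted p = 6.66e-09) and by more than Cdk2 (Cdk2 minus Cdk4 0.86 ± 0.09, adjusted p = 6.2e-06). Ccne2 fell by more than Ccne1 (Ccne1 minus Ccne2 1.22 ± 0.22, adjusted p = 0.000523), Ccnd2 by more than Ccnd1 (Ccnd1 minus Ccnd2 0.65 ± 0.12, adjusted p = 0.000725), and Cdkn1a rose by more than Cdkn1b (1.24 ± 0.12, adjusted p = 3.06e-06). The difference of Ccnd1 and Ccnd3 (-0.30 ± 0.10, adjusted p = 0.0341) was lost without E16 replicate 2 (0.274) or E18 replicate 2 (0.212). From E18 to P2, Ccnd2 rose relative to both Ccnd1 (Ccnd1 minus Ccnd2 -1.18 ± 0.12, adjusted p = 3.19e-05) and Ccnd3 (Ccnd2 minus Ccnd3 1.19 ± 0.13, adjusted p = 3.62e-05). Between E12 and Adult 6 of the 7 pairs differed. Of these, Ccnd2 minus Ccnd3 (-0.37 ± 0.13, adjusted p = 0.0227) was lost without E12 replicate 2 (0.125), Adult replicate 1 (0.0891) or Adult replicate 2 (0.0581) and with no moderation of the spread (0.0554). In the same comparison, the difference of Ccnd1 and Ccnd3 was 0.12 ± 0.10 (adjusted p = 0.352).

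**Figure D3:**
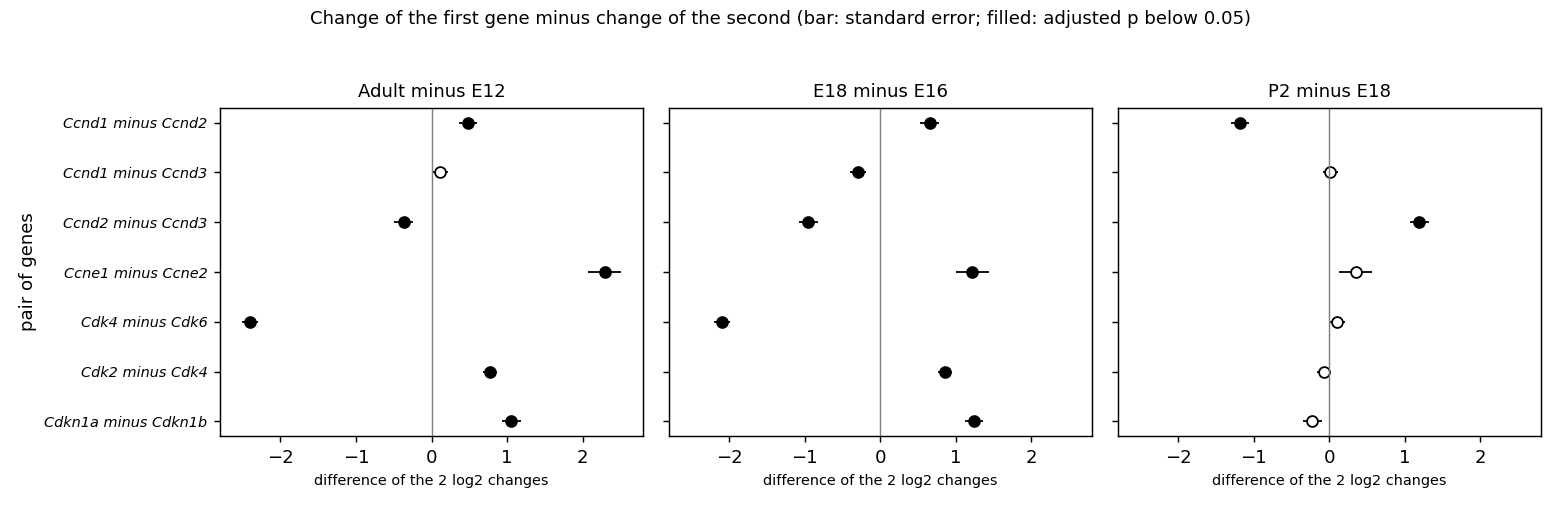
Difference of the log2 changes of 2 genes (x axis, the change of the first minus that of the second) for 7 pairs (y axis) in 3 comparisons, with the standard error as bars and filled points for an adjusted p below 0.05. Cdk4 minus Cdk6 sits at -2.40 in Adult minus E12 and at -2.09 in E18 minus E16, and at 0.10 in P2 minus E18.

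For each member, the 3 genes with the most like course were found by Pearson's r over the 14 arrays. The search took in the 4756 named genes whose highest mean was above 7 and whose means spanned more than 1.2, with clones and predicted genes left out. The arrays share time points, so r describes the course and carries no test. Ccne2 was closest to Hmgb2 (0.994), Cks1b (0.994) and Ect2 (0.993), and Cdk4 to Selenoh (0.999), Spc24 (0.998) and Spag5 (0.997). Cdk2 was closest to Snrpe (0.995), Bhlhb9 (0.994) and Dbf4 (0.994), and Ccne1 to Pspc1 (0.988), Ticrr (0.986) and Gnl3 (0.986). Of these neighbours, Cks1b is a subunit of CDK complexes, and Spc24 and Spag5 act at kinetochores and the spindle. Ect2 acts in cytokinesis, and Ticrr and Dbf4 act in the firing of replication origins. Only neighbours with a cell cycle role are described here. Selenoh, Snrpe and Pspc1, the nearest genes of Cdk4, Cdk2 and Ccne1, are not among them, nor are Hmgb2, Bhlhb9 and Gnl3. The D cyclins had other neighbours. Ccnd1 was closest to Fads2 (0.971), Tstd3 (0.948) and Dio2 (0.942), Ccnd2 to Nova1 (0.971), Nsg1 (0.956) and Pard6g (0.956), and Ccnd3 to Meis1 (0.901), Pcdh18 (0.896) and Mpped2 (0.896). Cdk6 had the least like neighbours, Hsd11b2 (0.867), Slc39a6 (0.839) and Tshz1 (0.824). Cdkn1a was closest to Rab27a (0.989), Wwtr1 (0.989) and Cish (0.987), and Cdkn1b to Ano1 (0.983), Lgi3 (0.974) and Efna1 (0.969).

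Among the members themselves, Ccne2 and Cdk2 correlated at 0.990, Cdk4 and Cdk2 at 0.985 and Ccne2 and Cdk4 at 0.978 over the 14 arrays. Cdk4 and Cdk6 correlated at 0.227. Ccnd1 and Ccnd2 were at 0.746 with each other and at 0.546 and 0.460 with Cdk4. Cdkn1a was at -0.958 with Ccne1 and at -0.912 with Cdk4.

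The other CDK inhibitor genes took different courses. Cdkn2b, which encodes the CDK4 and CDK6 inhibitor p15, was at 5.67 and 5.59 at E12, 5.83 and 5.85 at E14, 6.99 and 6.72 at E16, 10.06 and 10.05 at E18, 9.93 and 9.78 at P2, 9.37 and 9.46 at P10, and 9.75 and 9.78 in Adult. It rose by 3.20 ± 0.10 from E16 to E18 (adjusted p = 3.14e-10), when Cdk4 fell and Cdkn1a rose. Its 6 arrays to E16 and its 8 later arrays did not overlap. Cdkn2c, which encodes p18 of the same family, was lower at E18 than at E16 (-1.06 ± 0.16, adjusted p = 0.000112), at 10.95 and 10.92 at P10, and 2.36 ± 0.16 higher in Adult than at E12 (adjusted p = 1.5e-08).

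Cdkn1c, which encodes p57, the third relative of p21 and p27, fell from E12 to Adult while Cdkn1a and Cdkn1b rose. Cdkn1c was at 12.01 and 11.75 at E12 and at 9.13 and 9.11 in Adult. It fell by 2.76 ± 0.10 from E12 to Adult (adjusted p = 4.15e-11), and from E18 to P2 it fell by 1.15 ± 0.10 (adjusted p = 7.74e-06). In the step from E18 to P2, Cdkn1a (-0.53) and Cdkn1b (-0.31, not called) went the same way. Cdkn3, a phosphatase of CDKs that is itself high in dividing cells, fell by 3.03 ± 0.10 from E12 to Adult (adjusted p = 2.19e-11). Cdkn2d differed by 0.05 ± 0.13 between E12 and Adult (adjusted p = 0.774). Cdkn2a never exceeded a mean of 4.64 and differed by 0.45 ± 0.20 (adjusted p = 0.0683). Of these 6 genes, 2 were higher and 2 lower in Adult than at E12, where 35% and 30.2% of all genes were. At E18 against E16, 1 was higher and 4 lower, where 24.8% and 21.6% of all genes were.

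**Figure D4:**
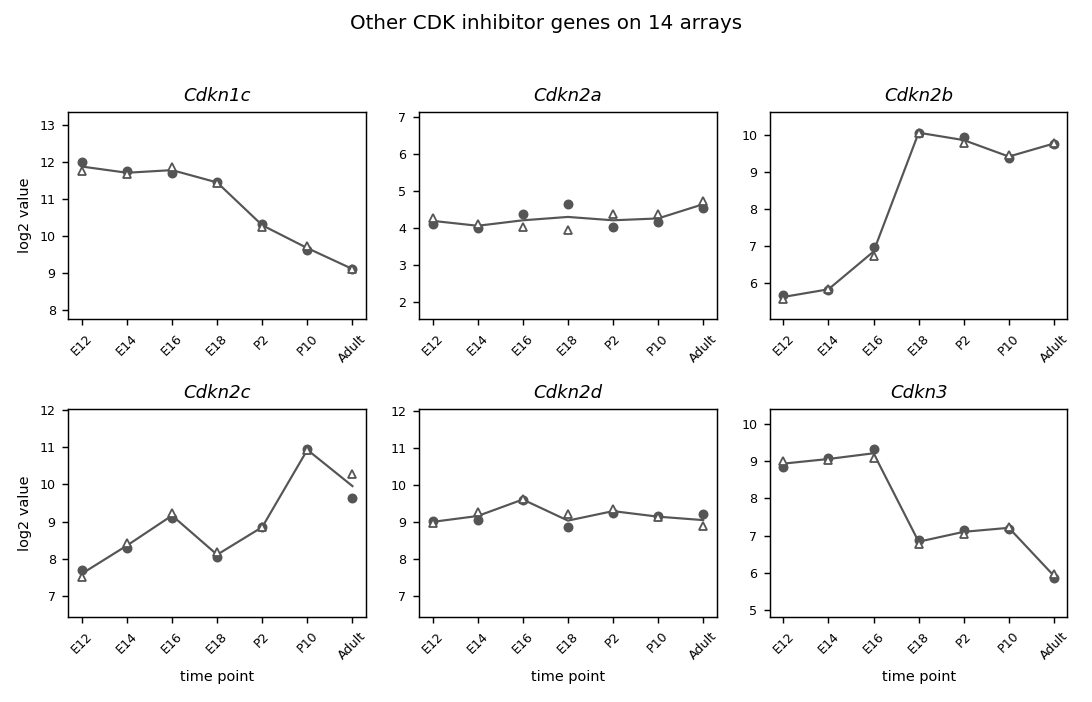
Log2 value (y axis, each panel spanning the same number of log2 units) of 6 other CDK inhibitor genes at the 7 time points (x axis), with circles for replicate 1, triangles for replicate 2 and a line through the mean. Cdkn2b jumps between E16 and E18, Cdkn1c falls after E18 and Cdkn2c is highest at P10.

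A list of 7 genes that control the activity of CDKs held both activators and the inhibitory kinases Wee1 and Pkmyt1. All 7 were lower in Adult than at E12 (median -1.39), where 30.2% of all genes were. All 7 were also lower at E18 than at E16 (median -0.80), where 21.6% of all genes were. The largest changes were those of Cdc25a, a phosphatase that activates CDK2 (-2.03 ± 0.10, adjusted p = 7.02e-10), and Cdk7, the CDK-activating kinase (-1.78 ± 0.09, adjusted p = 5.27e-10). Wee1 fell as well (-1.20 ± 0.12 from E16 to E18, adjusted p = 3.45e-06), as did Cdk7 in that step (-0.97 ± 0.09, adjusted p = 9.85e-07).

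Of 14 genes for the degradation of G1 cyclins and p27, 4 were higher and 8 lower in Adult than at E12 (median -0.45). The shares of all genes were 35% and 30.2%. At E18 against E16, 4 were higher and 6 lower (median 0.09), where 24.8% and 21.6% of all genes were. Skp2, the ubiquitin ligase subunit that recognises p27, fell by 4.74 ± 0.10 from E12 to Adult (adjusted p = 6.73e-13) and fell by 2.78 ± 0.10 from E16 to E18 (adjusted p = 6.04e-10). Cks2 fell by 4.06 ± 0.18 and dropped by 2.38 ± 0.18 in the same comparisons (adjusted p = 1.78e-10 and 1.68e-07). Fbxw7, the ligase subunit that recognises cyclin E, differed by 0.06 ± 0.10 between E12 and Adult (adjusted p = 0.661), and Ambra1, which directs cyclin D to its ligase, by 0.16 ± 0.12 (adjusted p = 0.26). At E18 against E16 the genes not called were Cul3 (0.07), Fbxw7 (0.10), Rbx1 (0.16) and Usp2 (0.31).

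Of 13 pocket protein and E2F genes, 4 were higher and 7 lower in Adult than at E12 (median -0.95). The shares of all genes were 35% and 30.2%. At E18 against E16, 5 were higher and 7 lower (median -0.63), where 24.8% and 21.6% of all genes were. From E12 to Adult E2f7 fell by 4.05 ± 0.21 (adjusted p = 1.01e-09) and E2f8 fell by 2.77 ± 0.15 (adjusted p = 1.52e-09). From E16 to E18, E2f8 fell by 1.99 ± 0.15 (adjusted p = 1.9e-07) and Rbl1, the pocket protein p107, fell by 1.65 ± 0.09 (adjusted p = 1.5e-08). Among the pocket proteins, Rb1 was 2.20 ± 0.10 higher in Adult than at E12 (adjusted p = 3.14e-10), Rbl2 1.44 ± 0.08 higher (adjusted p = 4.01e-09) while Rbl1 fell by 1.75 ± 0.09 (adjusted p = 1.42e-09). E2f4 (-0.11 ± 0.10, adjusted p = 0.333) and E2f5 (0.38 ± 0.16, adjusted p = 0.0535) were not called between E12 and Adult, and E2f5 (-0.31) was not called at E18 against E16.

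The S phase and division genes, which act after the G1 regulators, were lower in both comparisons for 17 of 17 genes. The medians were -3.24 (Adult minus E12) and -2.34 (E18 minus E16), where 30.2% and 21.6% of all genes were lower. From E18 to P2, 12 of the 17 were higher and 0 lower (median 0.57), while 2 of the 10 G1 genes and 8.58% of all genes were higher. From P10 to Adult 16 of 17 were lower (median -1.0), where 14.9% of all genes were. The largest changes were those of Top2a (-5.06 ± 0.12, adjusted p = 1.4e-12) and Cdk1 (-5.00 ± 0.16, adjusted p = 1.41e-11) from E12 to Adult, and of Cdc6 (-3.67 ± 0.17, adjusted p = 3.19e-09) and Mcm5 (-3.19 ± 0.14, adjusted p = 1.66e-09) from E16 to E18.

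Of 8 genes for FOXO and Krüppel-like factors and their target Ccng2, 7 were higher and 0 lower in both comparisons, with medians of 1.65 and 1.06. The shares of all genes called higher were 35% (Adult minus E12) and 24.8% (E18 minus E16). FOXO factors are known activators of Cdkn1b transcription. Klf9 was 4.52 ± 0.12 higher in Adult than at E12 (adjusted p = 2.52e-12) and 2.33 ± 0.12 higher at E18 than at E16 (adjusted p = 6.67e-09), and Klf2 was 4.19 ± 0.15 higher in Adult than at E12 (adjusted p = 2.75e-11). Klf4 was 1.97 ± 0.13 higher at E18 than at E16 (adjusted p = 6.7e-08). Foxo3 was also highest at E18, with a rise of 1.11 ± 0.15 from E16 (adjusted p = 5.42e-05) and a difference of -1.05 ± 0.15 to P2 (adjusted p = 0.000424). Its mean at P2 (9.62) was near that at E16 (9.57), while Cdkn1a and Cdkn1b at P2 stayed above E16. The means of Foxo1 and Foxo4 were highest in Adult (9.98 and 9.13). The part of FOXO factors in the Cdkn1b values was not tested. Ccng2 was not called in either comparison (-0.01 ± 0.09 and 0.23 ± 0.09).

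Of 11 damage response and growth arrest genes, 7 were higher and 2 lower in Adult than at E12 (median 0.40). The shares of all genes were 35% and 30.2%. At E18 against E16, 8 were higher and 1 lower (median 0.40), where 24.8% and 21.6% of all genes were. Perp was 2.81 ± 0.22 higher (adjusted p = 7.59e-08) in Adult than at E12, and Plk2 fell by 1.60 ± 0.11 (adjusted p = 1.49e-08). From E16 to E18, Btg2, an antiproliferative gene, rose by 0.86 ± 0.14 (adjusted p = 0.000215) and Perp by 0.82 ± 0.22 (adjusted p = 0.00855), against 1.96 for Cdkn1a. Mdm2 (0.18) and Gadd45a (0.33) were not called between E12 and Adult, nor Ccng1 (0.23) and Phlda3 (0.01) between E16 and E18.

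Of 10 genes that lead from growth factors to cyclin D, 5 were higher and 4 lower in Adult than at E12 (median 0.03). The shares of all genes were 35% and 30.2%. At E18 against E16, 4 were higher and 2 lower (median 0.08), where 24.8% and 21.6% of all genes were. Fos, Jun and Egr1 are also in the list of immediate early and stress genes. Fos was 3.88 ± 0.41 higher in Adult than at E12 (adjusted p = 1.52e-06), next to the fall of Mycn given with the Cdk4 promoter. The Adult arrays lay apart in Fos (11.13 in replicate 1 and 9.16 in replicate 2), both above the E12 arrays (6.35 and 6.16). The size of this difference is therefore less certain than its direction. From E16 to E18, Fos rose by 2.24 ± 0.41 (adjusted p = 0.000564) and Mycn fell by 1.17 ± 0.18 (adjusted p = 0.000123). Gsk3b, a kinase that marks cyclin D1 for degradation, was not called in either comparison (-0.24 and 0.09). Akt1 (0.07), Ctnnb1 (0.03) and Egr1 (-0.30) were not called from E16 to E18.

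**Figure D5:**
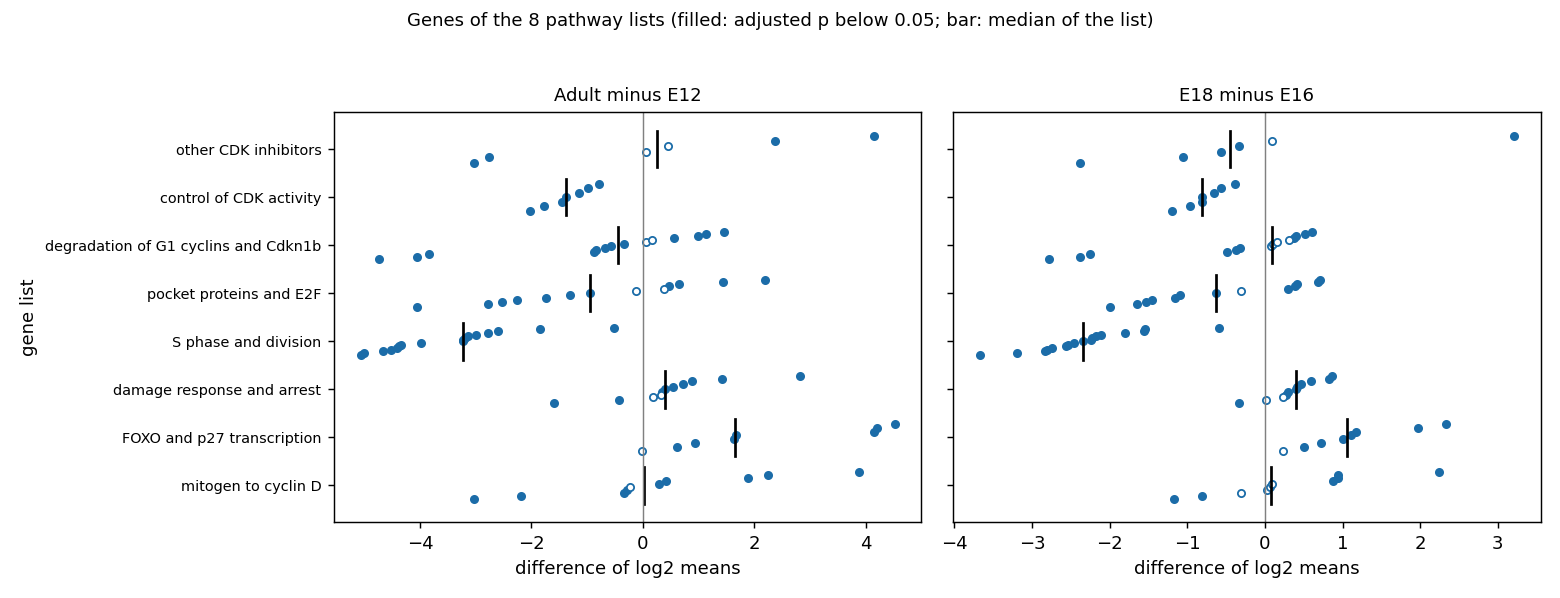
Difference of log2 means (x axis) of the genes of 8 lists (y axis) for Adult minus E12 and E18 minus E16, with filled points for an adjusted p below 0.05 and a bar at the median of a list. All points of the lists for the control of CDK activity and for S phase and division lie below 0 in both panels, and those of the other lists lie on both sides of 0, except 8 of 8 FOXO and p27 transcription genes above 0 at E18 minus E16.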

How the data were processed

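Whole-lung RNA had been hybridised to Affymetrix arrays. The log2 values deposited by the authors were used as they stood. They came from Partek 6.4, for which the methods give RMA and the submitters' processing notes GCRMA, so which background correction was used is unknown. Low values and their folds depend on it. The array gives no counts, and the 2 arrays per time point limit the precision.

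The 64 control probe sets were left out. Of 45037 probe sets, 34945 had 1 gene symbol, 932 several and 9160 none, and 0 were renamed by Entrez identifier (GRCm38.p6 names). In limma 3.58.1 (R 4.3.3), a model with 7 time-point means was fitted to all probe sets. Contrasts were called at a Benjamini-Hochberg adjusted p under 0.05 over all probe sets. The script was tested on simulated data. Replicate numbers did not pair the arrays (21 correlations of deviations from -0.18 to 0.0768, 0 over 0.1).

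The members and gene lists were chosen with earlier results of these data known. Named were the members, their 3 likest genes, the other CDK inhibitors and, per list, genes with the 2 largest changes or not called; further genes of the lists (Myc, Rb1, Rbl2, Foxo3) were named after their values were seen. Listed genes with no match were not used here. Alternatives were the mean of all probe sets of a gene, quantile normalization, median centring, a filter at a Max of 7, an intensity trend, no moderation, only the 4 arrays of a contrast, the replicate block and leaving out each array. The comparison of Adult with E18 and the fit without the P2 and P10 arrays were added after seeing the data.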

Additional observations from a re-analysis of the deposited data

How the results depend on the processing

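With 2 arrays per time point, a call of a small difference can rest on 1 array. Of the alternative values, 1728 member differences kept their direction and side of the threshold, 23 gained a call, 32 lost it and 4 reversed with a call on at least 1 side. A further 23 turned in sign without a call on either side (sizes up to 0.225 on all arrays). For pair differences these numbers were 1165, 13, 16, 3 and 14.

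The reversals came with the mean of all probe sets of a gene, which gives each probe set equal weight. For Ccnd3 this takes in the dim probe set that was higher in Adult, and for Cdk2 the dim one that showed no change. Ccnd3 then differed by 0.39 (Adult minus E12), 0.27 (E16 minus E14), 0.57 (E18 minus E16) and 0.28 (Adult minus P10), the pair of Ccnd1 and Ccnd3 by -0.83 (Adult minus E12) and -0.033 (Adult minus P10), and the pair of Cdk2 and Cdk4 by 0.26 (Adult minus E18). Under the same setting 5 members were dynamic, and the members called were 1 in E14 minus E12, 5 in P2 minus E18 and 1 in P10 minus P2.

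The count of P10 minus P2, which is 0, was 1 under quantile normalization, median centring, the filter at a Max of 7 and the intensity trend. That of P2 minus E18, which is 3, was 1 with no moderation. Without 1 array the counts were 9 to 10 (Adult minus E12), 0 to 0 (E14 minus E12), 3 to 5 (E16 minus E14), 7 to 9 (E18 minus E16), 1 to 3 (P2 minus E18), 0 to 1 (P10 minus P2), 3 to 5 (Adult minus P10), 5 to 6 (Adult minus E18) and 7 to 7 (dynamic genes). The drop to 1 in P2 minus E18 came without either E18 or either P2 array, and that to 3 in Adult minus P10 without Adult replicate 1. P10 minus P2 reached 1 without P10 replicate 1 (Ccnd2, 0.62) or P10 replicate 2 (Ccne2, -0.94). The cause was not tested.

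With the replicate block the counts were 7 dynamic genes and 10, 0, 5, 8, 3, 0, 5 and 6 called members in the order Adult minus E12, E14 minus E12, E16 minus E14, E18 minus E16, P2 minus E18, P10 minus P2, Adult minus P10 and Adult minus E18, where the added call in E16 minus E14 was Ccne1 (adjusted p = 0.0429). The filter at a Max of 7 was not run for pair differences.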
